A study of Mus musculus with 6 samples.

Results

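A set of 10 genes of cytosolic nucleic acid sensing was followed across 6 mouse pancreatic cancer cell lines. They were chosen by name and role, with no threshold on their levels: the sensors Cgas, Zbp1, Ddx58 (also called Rigi) and Ifih1, the adaptor Mavs, the kinases Tbk1 and Ikbke, the transcription factor Irf3, and the brakes Adar and Trex1. All 10 were found among the 56953 genes of the deposited table. The lines, KPC142, KPC180, KPC469, KPC490, KPC630 and KPC850, are pancreatic ductal adenocarcinoma (PDAC) cells labelled as derived from KPC mice, with 1 library of cultured cells per line. KPC is the usual name of a genetically engineered mouse model of pancreatic cancer, but the alleles, ages and treatments behind these lines are not stated in the labels. The study asks which genes mark lines whose tumours admit few T cells. The labels give no such class for any line, so each line stands for itself and no test between lines was possible.

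Cells sense nucleic acids that appear where they should not. The enzyme cGAS makes the messenger cGAMP when it meets DNA in the cytosol, and cGAMP switches on the membrane protein STING. RIG-I, the product of Ddx58, and MDA5, the product of Ifih1, recognise double-stranded RNA and signal through MAVS on mitochondria. Both routes end at the kinases TBK1 and IKKε, which phosphorylate IRF3, a transcription factor of the interferon-beta gene. ADAR edits double-stranded RNA so that MDA5 ignores it, and TREX1 degrades cytosolic DNA before cGAS meets it. ZBP1 binds nucleic acids in the left-handed Z form and engages RIPK3, a kinase of necroptotic cell death.

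Library totals ran from 16471558 to 18701274 counts, and 1 count was worth 0.0532 to 0.0607 CPM, the counts scaled to a common library total. Ratios between lines carry 95% intervals that cover counting error only, not the spread between cultures, which 1 library per line cannot show. The epithelial keratin gene Krt18 reached 2316 CPM in KPC850 and 543.3 CPM in KPC469, its lowest line, while Adgre1, Cd3d, Cd4, Ncr1, Nkg7 and Ms4a1 of the immune marker lists had 0 counts in all 6 lines. The summed T and NK cell list ran from 1.69 CPM in KPC850, all of it Trac, to 0.218 CPM in KPC469. The summed macrophage and dendritic cell list ran from 4.63 CPM in KPC630 to 1.63 CPM in KPC490, and Cd68 was the highest of its genes in every line. The summed list of 8 epithelial markers ran from 11785 CPM in KPC850 to 2821 CPM in KPC469, so the lines differed in these markers. The summed fibroblast list was highest in KPC469, at 7.30 CPM, and lowest in KPC142, at 0.659 CPM. Most of it in KPC469 was Pdgfrb (3.05 CPM) and Pdgfra (2.23 CPM), while Dcn and Lum had 0 counts in all 6 lines. The summed endothelial list ran from 2.66 CPM in KPC630, of which Kdr gave 2.50 CPM, to 0.218 CPM in KPC469. In libraries of whole cultures, fewer cells that express a gene and less RNA per cell cannot be told apart.

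The genes differed in how much they varied between lines. Mavs, Tbk1, Irf3 and Trex1 differed by less than 2-fold between their highest and lowest lines, whereas Cgas, Ddx58, Ikbke and Adar differed by more. The range of each gene was taken on the log2 CPM scale, among the 11531 genes with about 10 counts or more in every line, which left out Ifih1 and Zbp1. Of the 8 genes that remained, 4 reached a 2-fold range, against 46.7% of all 11531 genes, and 3 (Cgas, Ddx58 and Ikbke) reached a 4-fold range, against 13.2%. Without KPC142 the 4-fold count was 1, and without KPC469 or KPC850 it was 2. Their median log2 range was 1.04, beside 0.95 over all the genes. A looser filter, added after the data were seen, asked for 1 CPM in any line and let 13935 genes through, 9 of the 10 among them. With Ifih1 added, 5 passed 2-fold against 55.8% of genes, and 4 passed 4-fold against 25.6%. Shares so close to the background at 2-fold show nothing particular to these genes as a set. The range of Ikbke was larger than that of 98.8% of the 11531 genes. By the same measure Ddx58 stood at 89.0%, Cgas at 87.8% and Adar at 70.2%, and Trex1 at 10.2% had the smallest range of the 8.

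**Figure D1:**
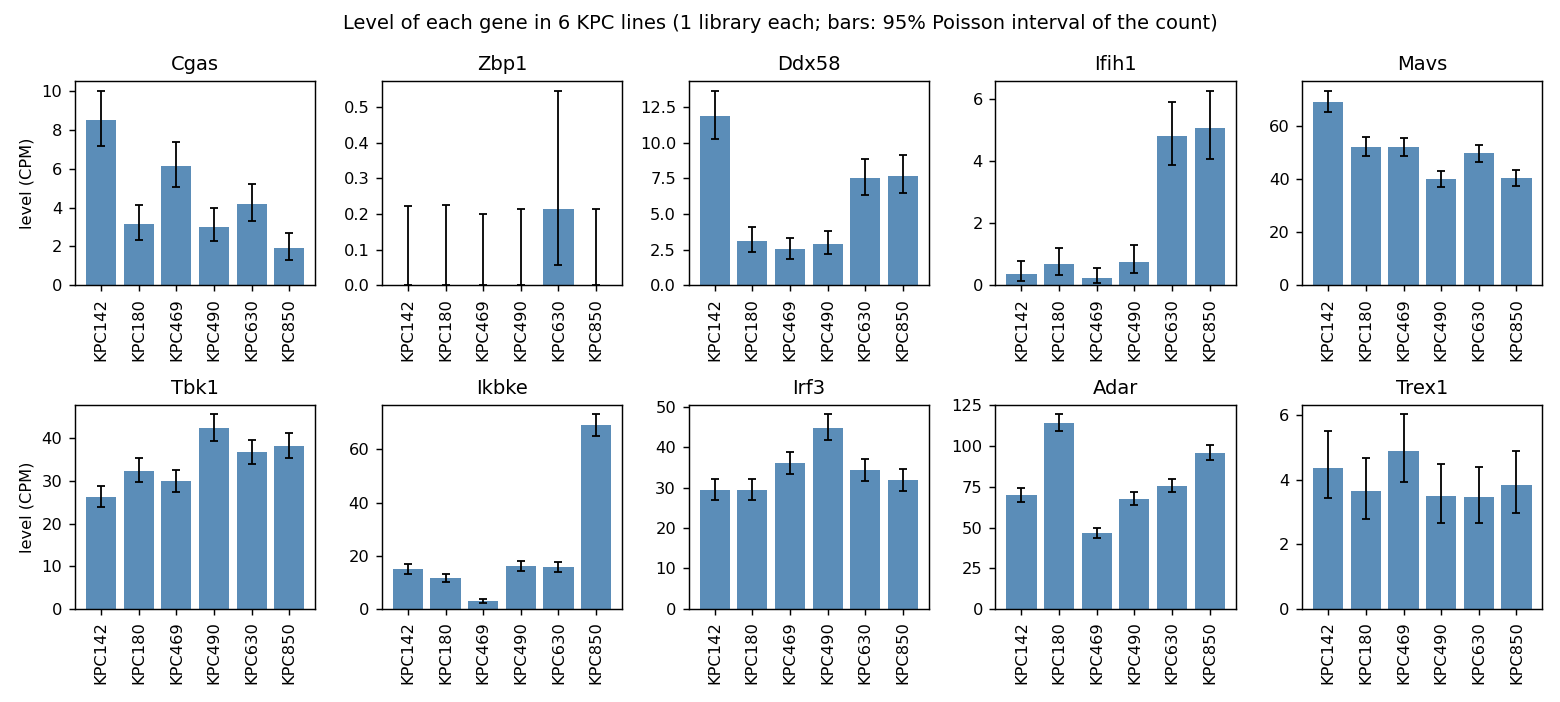
Level of each of the 10 genes in CPM (vertical axis, a scale of its own in each panel) in the 6 lines, 1 library each, with exact Poisson 95% intervals of the count. Ikbke stands at 69.1 CPM in KPC850 and 2.83 CPM in KPC469, Ifih1 is near 5 CPM in KPC630 and KPC850 only, and Mavs, Tbk1, Irf3 and Trex1 are even.

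**Figure D2:**
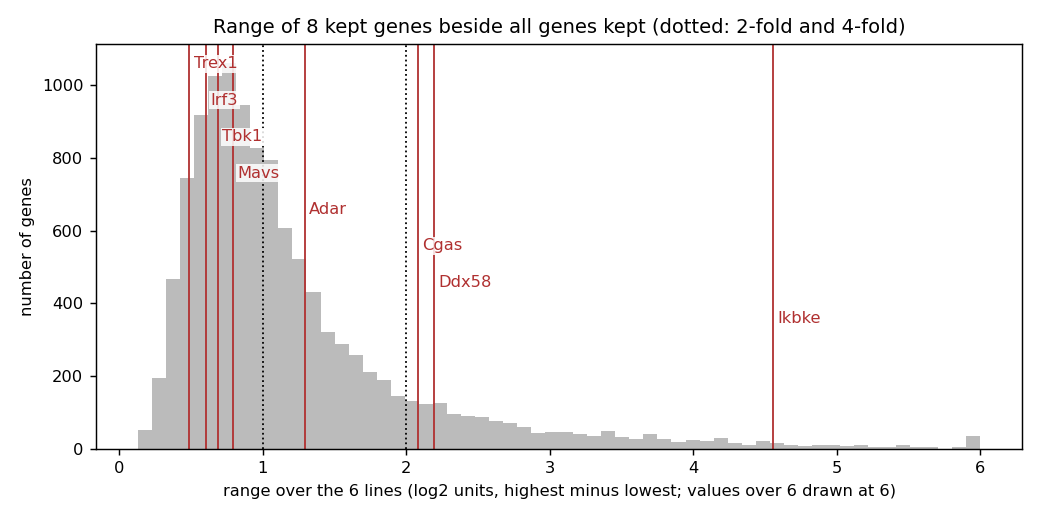
Histogram of the range over the 6 lines (horizontal axis, log2 units) for 11531 genes (vertical axis, number of genes), with a red line for each of the 8 sensing genes kept and dotted lines at 2-fold and 4-fold. Ikbke at 4.55 lies in the right tail, Ddx58 at 2.19 and Cgas at 2.08 lie just past 4-fold, and Trex1 at 0.49 lies left of the median.

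Among the DNA sensors, Cgas (ENSMUSG00000032344), the cytosolic DNA sensor, had 8.51 CPM in KPC142, 6.16 in KPC469, 4.21 in KPC630, 3.16 in KPC180, 3.02 in KPC490 and 1.92 in KPC850. KPC142 and KPC469 stood above the other lines, and the neighbours in the order KPC630, KPC180, KPC490 and KPC850 could not be told apart by counting error. The level in KPC142 was 4.42 times that in KPC850 (95% interval 3.01 to 6.67), on 142 and 33 counts. Without KPC142 the widest ratio was 3.20, and without KPC850 it was 2.82.

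Zbp1 (ENSMUSG00000027514), the sensor of Z-form nucleic acids, was close to silent: KPC630 had 4 counts (0.213 CPM) and the other 5 lines had 0. A count of 0 allows a level of up to 3 counts as a one-sided limit, which is 0.163 to 0.182 CPM in those 5 libraries; the two-sided intervals drawn in the plot of levels reach 0.201 to 0.224 CPM there. No ratio is given on so few counts.

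Of the RNA sensors, Ddx58 (ENSMUSG00000040296), which encodes RIG-I, had 11.9 CPM in KPC142, 7.69 in KPC850, 7.51 in KPC630, 3.10 in KPC180, 2.90 in KPC490 and 2.51 in KPC469. The lines formed a higher and a lower trio, in which only KPC142 stood beyond counting error of its neighbour, and KPC630, the lowest of the higher trio, was 2.43 times KPC180 (95% interval 1.75 to 3.41). The ratio of KPC142 to KPC469 was 4.73 (3.42 to 6.68), and without KPC142 the widest ratio was 3.07.

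Ifih1 (ENSMUSG00000026896), which encodes MDA5, showed a sharper division at much lower counts. It had 5.07 CPM in KPC850 and 4.79 in KPC630, against 0.755 in KPC490, 0.668 in KPC180, 0.36 in KPC142 and 0.218 in KPC469. KPC850 and KPC630 did not differ beyond counting error, and neither did any neighbours among the other 4 lines. The gap between the groups, KPC630 over KPC490, was 6.35-fold (3.53 to 12.4). The full ratio of KPC850 to KPC469 was 23.3 (8.77 to 87.3), resting on 87 and 4 counts. Without KPC469 the widest ratio was 14.1. The line with the most Ddx58, KPC142, was therefore among those with little Ifih1. The ratio of Ifih1 to Ddx58, each per kilobase of its longest coding transcript, was 0.467 in KPC850 and 0.452 in KPC630, and ran from 0.184 in KPC490 to 0.0215 in KPC142 in the rest.

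Short stretches at the start sites of both RNA sensor genes are shown because each holds the core of the interferon-stimulated response element, GAAA, any 2 bases, then GAAA, searched on both strands with overlaps kept. The 9 genes with a RefSeq promoter (GRCm38.p6) have 12 start sites, and Zbp1 had no entry. Each window covered 250 bases before to 50 after the start. Windows of the same 300 bases held the core at 3.44% of 32851 promoters. Of the 9 genes only Ifih1 and Ddx58 held it, and forms of the element with another spacing were not searched. Patterns of NF-kB and STAT sites were searched in the same windows. Of the 9 genes only Adar matched, with a short NF-kB pattern (4.26% of promoters) and the STAT pattern (8.3%). The stretches are on the minus strand of GRCm38.p6, at chr2:62646206-62646233 for Ifih1 and chr4:40239804-40239833 for Ddx58, written 5′ to 3′ along the gene, with the match in capitals. The match begins at base 33 for Ifih1, where base 1 directly follows the 250 bases before the start, and reads on the gene's strand. It begins at base 3 for Ddx58 and reads on the opposite strand, so the capitals show its complement.
Ifih1: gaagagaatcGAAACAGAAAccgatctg
Ddx58: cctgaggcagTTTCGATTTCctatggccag
A match of letters is a description and does not show binding. Ikbke, the widest-ranging of the 8 genes kept by the filter, has no match in its window.

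Mavs (ENSMUSG00000037523), the mitochondrial adaptor of both RNA sensors, was well expressed throughout. It had 69.3 CPM in KPC142, 52.4 in KPC180, 52.2 in KPC469, 49.8 in KPC630, 40.5 in KPC850 and 40.0 in KPC490. Its range was narrow, with KPC142 at 1.73 times KPC490 (95% interval 1.58 to 1.91). KPC180, KPC469 and KPC630 were neighbours that did not differ beyond counting error, and neither did KPC850 and KPC490.

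The kinases TBK1 and IKKε share substrates, and their genes behaved differently. Tbk1 (ENSMUSG00000020115) had 42.4 CPM in KPC490, 38.3 in KPC850, 36.7 in KPC630, 32.4 in KPC180, 29.9 in KPC469 and 26.3 in KPC142. The ratio of KPC490 to KPC142 was 1.61 (1.43 to 1.82). Neighbours in that order differed beyond counting error at 2 steps only, KPC630 over KPC180 and KPC469 over KPC142, both narrowly. Ikbke (ENSMUSG00000042349), which encodes IKKε, had 69.1 CPM in KPC850, 16.0 in KPC490, 15.8 in KPC630, 14.9 in KPC142, 11.5 in KPC180 and 2.83 in KPC469. KPC850 lay far above and KPC469 far below, while KPC490, KPC630 and KPC142 were neighbours that did not differ beyond counting error. KPC850 was 24.4 times KPC469 (18.5 to 32.9), on 1186 and 52 counts. KPC850 was 4.31 times the next line, KPC490 (3.78 to 4.93), and KPC180 was 4.07 times KPC469 (2.98 to 5.64). Without KPC850 the widest Ikbke ratio was 5.66, and without KPC469 it was 5.996, so the range rests on both of these lines. The lines at both ends of the Ikbke order are also those at both ends of the summed epithelial markers given above. That sum is mostly keratins, and of the 8 markers only Krt8 and Krt18 had both of these end lines. KPC469 is also the highest for the summed fibroblast list, most of it Pdgfrb and Pdgfra. The part of these markers in the Ikbke result was not tested.

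Levels of different genes can be compared only per length. Per kilobase of its longest coding transcript, Ikbke was at 1.68 times Tbk1 in KPC850, 0.525 in KPC142, 0.400 in KPC630, 0.352 in KPC490, 0.331 in KPC180 and 0.0881 in KPC469. Tbk1 was thus the higher of the 2 kinase genes in 5 lines, and Ikbke in KPC850. That order in KPC850 depends on the length used: per kilobase of all annotated exons, which for Ikbke include long retained stretches, the ratio there was 0.783.

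**Figure D3:**
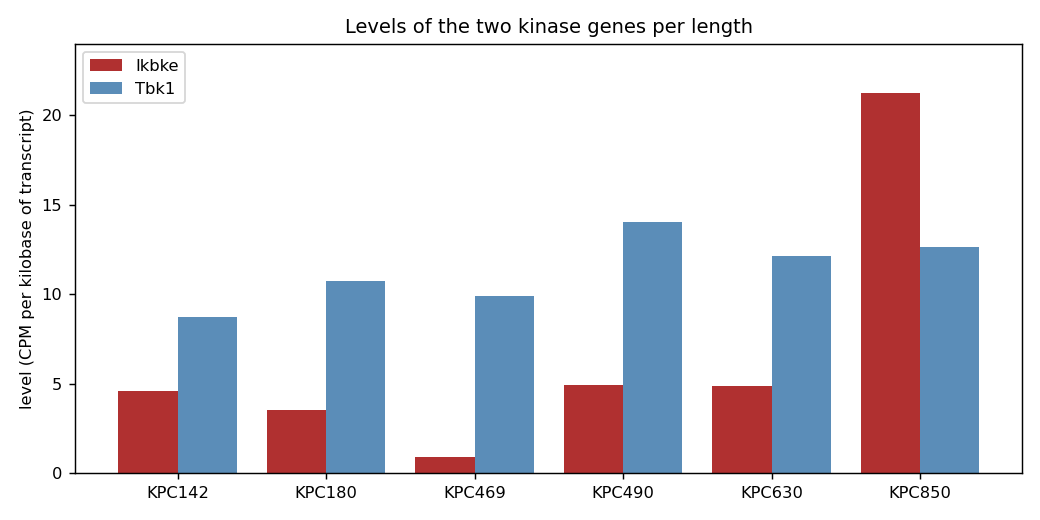
Ikbke and Tbk1 in CPM per kilobase of the longest coding transcript (vertical axis) in the 6 lines, 1 library each. Tbk1 stays between 8.70 and 14.0, while Ikbke reaches 21.3 in KPC850 and 0.871 in KPC469.

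The promoters of the kinase genes differ in CpG content, and they are shown because the kinases share substrates and the ranges of their genes differ. The last 150 bases before each start are printed with each CG pair in capitals, both from the minus strand of GRCm38.p6, chr10:121586795-121586944 for Tbk1 and chr1:131279564-131279713 for Ikbke.
Tbk1: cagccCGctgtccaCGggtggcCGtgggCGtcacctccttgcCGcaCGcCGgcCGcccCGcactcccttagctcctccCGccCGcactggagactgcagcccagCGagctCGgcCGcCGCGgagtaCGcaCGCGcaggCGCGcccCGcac
Ikbke: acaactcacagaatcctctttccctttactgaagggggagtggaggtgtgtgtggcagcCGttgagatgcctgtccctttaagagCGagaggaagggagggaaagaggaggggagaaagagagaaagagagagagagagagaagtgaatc
The Tbk1 stretch holds 22 CG pairs and the Ikbke stretch 2. Over the 250 bases before the start, Tbk1 had more CG pairs than 94.8% of RefSeq promoters and Ikbke more than 37.8%. By the same measure the even genes Irf3 and Mavs stood at 74.6% and 72.7%. The variable genes Ddx58, Ifih1 and Cgas stood lower, at 66.5%, 64.4% and 59.7%. The division was not complete. The starts of the even gene Trex1 stood at 53.7% and 37.8%, and those of the variable gene Adar at 44.4%, 88.0% and 62.2%. No methylation was measured here, and what the difference does in these cells was not tested.

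Irf3 (ENSMUSG00000003184), the transcription factor that both kinases phosphorylate, was even across the lines. It had 44.8 CPM in KPC490, 36.0 in KPC469, 34.3 in KPC630, 31.8 in KPC850, 29.5 in KPC142 and 29.4 in KPC180. KPC490 was 1.52 times KPC180 (1.36 to 1.71), and below KPC490 no neighbours differed beyond counting error. Irf3 shares exon sequence with Bcl2l12 on the opposite strand, which had 4.91 to 10.6 CPM; whether reads were counted by strand is not given in the sources used here, although the kit keeps strand.

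Of the brakes, Adar (ENSMUSG00000027951), the RNA-editing enzyme, was abundant and moderately variable. It had 114.2 CPM in KPC180, 95.9 in KPC850, 75.7 in KPC630, 69.9 in KPC142, 67.7 in KPC490 and 46.5 in KPC469. KPC180 was 2.45 times KPC469 (2.26 to 2.66), and without KPC469 the widest ratio was 1.69. KPC142 and KPC490 were the only neighbours that did not differ beyond counting error. The table gives a value per gene, so the interferon-inducible and constitutive isoforms of Adar were not separated. Trex1 (ENSMUSG00000049734), the DNA exonuclease, had 4.90 CPM in KPC469, 4.37 in KPC142, 3.85 in KPC850, 3.64 in KPC180, 3.48 in KPC490 and 3.46 in KPC630. No neighbours in that order differed beyond counting error, and KPC469 was 1.42 times KPC630 (1.02 to 1.98). Adar shares exon sequence with Chrnb2 on the opposite strand, which had 1.65 to 4.67 CPM. Trex1 lies wholly within Atrip on the same strand, and its deposited counts are fractional, so its level depends on how reads were shared with Atrip, which had 12.8 to 19.9 CPM.

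Per kilobase of the longest coding transcript, the median levels over the lines were 16.7 for Mavs, 16.3 for Irf3, 12.3 for Adar and 11.4 for Tbk1. They were 4.72 for Ikbke, 3.45 for Trex1, 1.37 for Ddx58, 0.909 for Cgas and 0.130 for Ifih1. The adaptor, the transcription factor, the editing enzyme and TBK1 thus stood above all sensors in the set. With all annotated exons as the length, Trex1 passed Ikbke and Cgas passed Ddx58, and the other places stayed.

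Each gene was also set beside the genes around it on its chromosome. For each line the log2 CPM minus the median of the 6 lines was taken for the gene, for its chromosome and for the 10 kept genes on each side. In KPC850, Ikbke on chromosome 1 stood 2.16 above its median, against 0.41 for its neighbours. In KPC469 it stood at -2.39 and its neighbours at 0.02. These are medians: the highest of the neighbours in KPC850 stood at 2.08, close to Ikbke, and the lowest in KPC469 stood at -1.08. Ddx58 on chromosome 4 was different: in KPC142 it stood at 1.28, its neighbours at 0.68 and the whole chromosome at 0.50. In KPC850 and KPC630, the other lines of its higher trio, Ddx58 stood at 0.66 and 0.62 and its neighbours at -0.15 and -0.03. In KPC180 the signs were opposite, with Ddx58 at -0.62 and its neighbours at 0.43. Cgas on chromosome 9 stood at 1.20 in KPC142 and -0.88 in KPC850, with neighbours at -0.02 and 0.09. Adar on chromosome 3 stood at 0.65 in KPC180 and -0.64 in KPC469, with neighbours at 0.09 and 0.30. Tbk1 on chromosome 10 followed its surroundings closely within its narrow range: in KPC490 it stood at 0.30, its neighbours at 0.35 and the chromosome at 0.33, and in KPC142 it stood at -0.39, its neighbours at -0.23 and the chromosome at -0.27. DNA was not measured, and the part of the surrounding region in the levels of Ikbke, Ddx58 and Tbk1 was not tested.

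**Figure D4:**
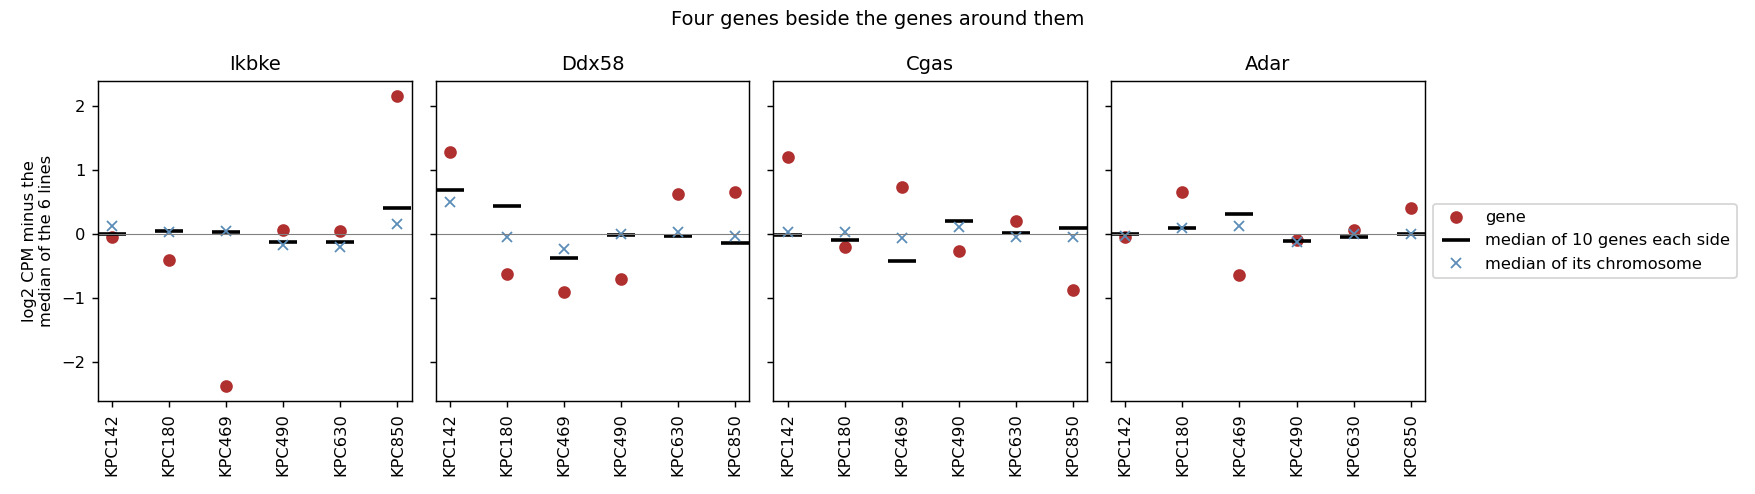
Log2 CPM minus the median of the 6 lines (vertical axis) for Ikbke, Ddx58, Cgas and Adar (red points), for the median of the 10 kept genes on each side (black bars) and for the median of the chromosome (blue crosses), by line. The bars stand at 0.41 and 0.02 where Ikbke is at 2.16 and -2.39, and at 0.68 where Ddx58 is at 1.28 in KPC142.

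The 10 genes did not move as a block. Over the 6 lines, the 36 pairs among the 9 genes that reached 1 CPM anywhere had Pearson correlations of log2 CPM from -0.94 (Tbk1 with Mavs) to 0.87 (Cgas with Mavs), with a median of -0.17. Of these, 15 were positive and 21 negative, and 11 changed sign when 1 line was left out. All pairs share the same 6 libraries, so these are descriptions. Likeness to other genes was looked for with the 3 widest-ranging of the 8 genes kept by the filter, which leaves out Ifih1. By Pearson r among the 5385 kept genes that ranged over 2-fold or more, the most alike were Dgat2 (0.99), Aff1 (0.98) and App (0.98) for Ikbke. For Ddx58 they were ENSMUSG00000121068 (0.98), Srxn1 (0.98) and Trabd (0.98), and for Cgas they were Ofd1 (0.99), Hist1h4i (0.98) and Drp2 (0.97). All were picked as the highest of 5385 values over only 6 lines. Such a search can give r this high by itself, so the values show no link. A high r also did not mean a like range: Dgat2 ran only from 22.7 CPM in KPC469 to 48.4 in KPC850.

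Other genes of the pathway were taken from lists. Of 12 DNA-sensing genes and cofactors, 8 were kept, 3 ranged over 2-fold or more and 2 over 4-fold or more, against 46.7% and 13.2% of all kept genes; the median log2 range was 0.92. The widest differences lay in genes too low in some line to be kept. Such genes, in this list and those below, were named only if they reached 10 CPM in a line. A wide range in them therefore follows from the rule. Aim2, the DNA sensor of the inflammasome, had 85.3 CPM in KPC850 and 47.0 in KPC630, then 4.13 in KPC142, 3.08 in KPC490, 0.364 in KPC180 and 0 in KPC469. Against a floor of 3 counts in KPC469, KPC850 was at least 521.7-fold higher. Sting1, the receptor of the cGAS product, had 12.5 CPM in KPC630, against 1.70 in KPC180, 1.25 in KPC469, 0.933 in KPC850, 0.539 in KPC142 and 0.290 in KPC490. KPC630 was 42.9 times KPC490 (18.1 to 133.4), on 234 and 5 counts, and no line but KPC630 passed 2 CPM. KPC142, the line with the most Cgas, was thus among the lines with low Sting1. The 95% interval of its 9 counts there, 0.247 to 1.02 CPM, overlapped those of KPC490, KPC850 and KPC469. Such overlap does not show that lines are alike, and no ratio interval was taken for these pairs.

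Ifi203, Ifi204 and Mndal belong to the same gene family as Aim2 and varied as well. Family members are alike in sequence, which makes the split of reads between them uncertain, although their deposited counts were whole numbers. Ifi203 had 41.2 CPM in KPC850 and 0.539 in KPC142, a ratio of 76.3 (40.0 to 167.6). Mndal had 18.3 CPM in KPC850 and 1.14 in KPC142, a ratio of 16.1 (10.1 to 27.1). Ifi204 was ordered differently, with 23.7 CPM in KPC142 and 4.74 in KPC469, a ratio of 4.99 (3.95 to 6.37). Pqbp1, a cofactor of cGAS, was 2.01 times higher in KPC630 than in KPC850.

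For the ZBP1 partners in cell death, 1 of 4 kept genes of 5 had a range of 2-fold or more (46.7% of all kept genes), namely Mlkl, the pore-forming effector of necroptosis, with 54.5 CPM in KPC142 and 11.9 in KPC469 (4.57-fold, 3.94 to 5.32). Ripk3, the kinase that ZBP1 engages, had 46.4 CPM in KPC630, 33.2 in KPC850, 6.49 in KPC180, 6.27 in KPC490, 0.240 in KPC142 and 0.109 in KPC469. The ratio of KPC630 to KPC469 was 426.0 (117.6 to 3524), on 2 counts in KPC469. Fadd (20.6 CPM in KPC490, 11.8 in KPC180) and Casp8 (57.9 CPM in KPC180, 42.8 in KPC469), the caspase arm, were even. Aim2, Ripk3 and Ifih1 were all highest in KPC630 and KPC850 and lowest, or at 0, in KPC469, though at 4 counts or fewer there the low lines cannot be put in order. Other unkept genes of the lists did not share this order. Sting1 was at 0.933 CPM in KPC850, Ifi203 was lowest in KPC142, and Cxcl1 was highest in KPC469.

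**Figure D5:**
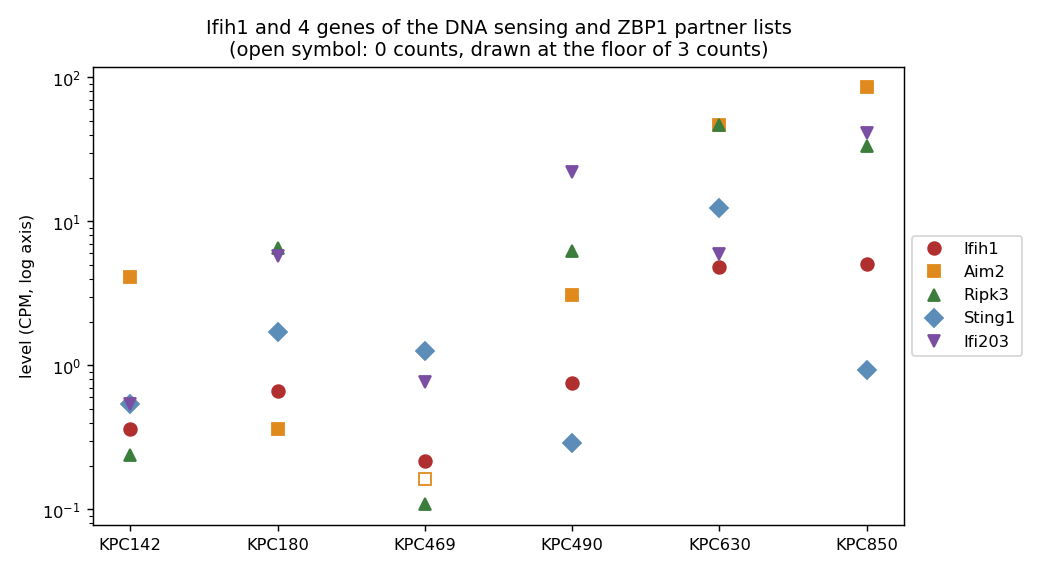
Level in CPM (vertical axis, log scale) of Ifih1, Aim2, Ripk3, Sting1 and Ifi203 in the 6 lines, 1 library each; the open symbol marks 0 counts, drawn at the floor of 3 counts. Ifih1, Aim2 and Ripk3 are highest in KPC630 and KPC850, whereas Sting1 is high in KPC630 alone, at 12.5 CPM. Ifi203 is highest in KPC850, at 41.2 CPM, and next in KPC490, at 22.0 CPM.

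On the RNA side, 8 of 14 genes were kept; 6 ranged over 2-fold or more, against 46.7% of all kept genes, and 5 of the 14 stayed under 1 CPM in every line. Trim25, a ubiquitin ligase of the RIG-I route, had 154.5 CPM in KPC850 and 46.7 in KPC142, 3.31-fold. Zc3h12a, an RNase of inflammatory transcripts, had 21.6 CPM in KPC850 and 7.10 in KPC180, 3.04-fold.

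Among the adaptors and scaffolds around TBK1, 3 of 13 ranged over 2-fold or more and 0 over 4-fold or more, against 46.7% and 13.2% of all kept genes, with a median log2 range of 0.66. Tbkbp1, a scaffold that binds both kinases, had 9.44 CPM in KPC850 and 2.51 in KPC469 (3.77-fold). These are the end lines of Ikbke too, but unlike there they were not set apart. KPC142 at 9.05 CPM and KPC180 at 2.61 CPM stood beside them, with overlapping count intervals. Ikbkg, the regulatory subunit of the NF-kB kinase complex, had 211.1 CPM in KPC142 and 90.1 in KPC490 (2.34-fold). Ikbkb, a catalytic subunit of it, had 135.0 CPM in KPC180 and 64.7 in KPC469 (2.09-fold).

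Among the transcription factors of the response, 3 of 6 kept genes of 8 had a range of 2-fold or more, near the 46.7% of all kept genes. Stat2 had 13.6 CPM in KPC850 and 3.49 in KPC469 (3.91-fold), and Irf1 had 44.4 CPM in KPC630 and 17.9 in KPC469 (2.48-fold). Irf7, which amplifies interferon production, stayed at or under 1.22 CPM in every line.

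At the end of the pathway, Ifnb1, Ifna2, Ifna4, Ifnl2 and Ifnl3 had 0 counts in all 6 lines, which allows up to 0.160 to 0.182 CPM. Of the 4 receptor genes, Ifnlr1 had 17.3 CPM in KPC142 and 5.80 in KPC630 (2.98-fold) and Il10rb had 29.4 CPM in KPC850 and 12.8 in KPC142 (2.30-fold). Ifnar1 was present everywhere, with 80.9 CPM in KPC469 and 45.4 in KPC142, its lowest line.

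Interferon-stimulated genes were mostly low: 11 of 20 stayed under 1 CPM in every line, and Ifi44, Rsad2 and Trim30a had 0 counts throughout. The 6 that were kept all had a range of 2-fold or more, 2 of them of 4-fold or more, against 46.7% and 13.2% of all kept genes. Their median log2 range was 1.67 beside 0.95 over all genes. Oasl1 had 64.6 CPM in KPC850, 33.6 in KPC630, 25.7 in KPC180, 20.0 in KPC490, 9.11 in KPC142 and 5.72 in KPC469. Its ratio of KPC850 to KPC469 was 11.3 (9.24 to 13.9). Ifi27 had 5.63 CPM in KPC142 and 1.20 in KPC469 (4.70-fold), and Ifit2 had 10.4 CPM in KPC142 and 3.19 in KPC490 (3.26-fold). Averaged over the kept genes, the log2 CPM relative to the mean of the 6 lines was 0.46 in KPC850 and 0.35 in KPC630, then 0.19 in KPC180, 0.17 in KPC142, -0.13 in KPC490 and -1.04 in KPC469. The first place of KPC850 was not shared by the single genes. Only 1 of the 6, Oasl1, was highest there, while 3 were highest in KPC142 and 2 in KPC630. The 5 kept epithelial markers on the same scale stood at 0.78 in KPC850, 0.64 in KPC630, 0.31 in KPC142, -0.06 in KPC490, -0.32 in KPC180 and -1.35 in KPC469. This average has the same lines at both ends, though of the 5 markers 3 were highest in KPC850 and 2 in KPC630. The part of these markers in the result was not tested. KPC469, lowest for the interferon-stimulated genes, was also the lowest line for Ikbke and Adar beyond counting error. It had the lowest values of Ifih1 and Ddx58 and the highest of Trex1 too, but did not differ there from the next line in the order.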

How the data were processed

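Stranded poly(A) mRNA libraries were made per the labels' protocols. The authors deposited expected counts per gene. Per the submitters' processing notes the tools were RSEM 1.3.3, STAR 2.7.10b and Trimmomatic 0.36, on GRCm39, with no parameters given. These were rounded to whole numbers. TMM factors and CPM, and log2 values with prior count 2, came from edgeR 4.0.16 in R 4.3.3; DESeq2 1.42.0 gave alternative size factors. The filter filterByExpr, without groups, kept 11531 genes. Because each line has 1 library, no test was made: levels carry exact Poisson and ratios exact conditional binomial 95% intervals, and a fold against 0 counts uses a floor of 3 counts in that library. Symbols, lengths and gene order came from GENCODE M21 (GRCm38; 52029 identifiers matched), and Sting1 was found there under its older name. Promoters came from RefSeq. The members and lists were chosen with earlier results of these data known. Named from each list were the 3 kept genes of largest range and any unkept gene with at least 10 CPM in a line. Krt18 and the other single cell markers named, Atrip, Bcl2l12, Irf7 and the genes given at 0 were chosen after their values were seen. Some genes that this rule takes are not reported here. The calculations were tested on simulated data.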

Additional observations from a re-analysis of the deposited data

How the results depend on the processing

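The count of the 10 genes with a range of 2-fold or more was 4 under 3 other scalings, a prior count of 0.5 and plain CPM ratios. It was 6 with every gene of at least 1 count, 5 with genes of at least 1 CPM in a line, which was added after seeing the data, and 3 at 10 CPM. The count at 4-fold or more was 3 under those scalings, 4 at 1 count or 1 CPM and 2 at 10 CPM. Leaving out each line in turn gave 3 to 4 genes at 2-fold and 1 to 3 at 4-fold; the single gene was left without KPC142. None of the 36 ratios under the 3 other scalings or with unrounded expected counts left its counting interval. With a line left out, 9 of 54 did. A ratio can change only when its highest or lowest line is the one left out, so most of the 54 could not move. Unrounded counts changed only the ratios of Adar and Trex1. Depth limits Zbp1, Ifih1 and Trex1 most.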

Other observations

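The NF-kB target list varied in no common direction: 8 of 11 kept genes of 14 ranged over 2-fold or more and 1 over 4-fold or more, against 46.7% and 13.2% of all kept genes. Nfkbie, an inhibitor of NF-kB, had 8.73 CPM in KPC630 and 0.850 in KPC180, a ratio of 10.3 (95% interval 5.95 to 19.2). Tnfaip3, a ubiquitin-editing brake, had 62.3 CPM in KPC180 and 17.4 in KPC469 (3.58-fold). Relb, an NF-kB subunit, had 17.0 CPM in KPC469 and 7.04 in KPC180. Cxcl1, a neutrophil chemokine, had 16.4 CPM in KPC469 and 0 counts in KPC490, at least 94.1-fold higher against the floor of 3 counts.

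Among the other nucleases and brakes, 5 of 14 kept genes of 15 ranged over 2-fold or more and 1 over 4-fold or more, against the same shares of 46.7% and 13.2%. Adarb1, the second RNA-editing enzyme, had 16.7 CPM in KPC469 and 2.74 in KPC850, a ratio of 6.09 (4.47 to 8.46); Adar, by comparison, was lowest in KPC469. Cyld, a deubiquitinase, had 126.0 CPM in KPC180 and 38.9 in KPC490 (3.24-fold). Nlrx1, a mitochondrial regulator of the MAVS route, had 5.03 CPM in KPC142 and 1.96 in KPC469 (2.57-fold).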
